A study of Mus musculus with 41 samples.

Results

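The genes described here are the hypoxia response and glycolysis genes of MEEC, a mouse embryonic endocardial cell line with a wild-type genotype, the endocardium being the endothelium that lines the heart. The list held 35 gene symbols, chosen by function with earlier results of these data known, and 34 of them were found under 1 Ensembl identifier in each of 3 deposited RNA-seq tables. The tables listed 13886, 12984 and 13407 genes, 14133 in any of them. Adm, the remaining symbol, was not analysed here.

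MEEC were exposed to the Notch ligands JAG1 and DLL4 in 3 experiments, with 41 libraries in 13 groups. In the first, MEEC were grown for 24 h or for 6 h over OP9 stromal feeder cells expressing Jag1 (OP9-Jag1), Dll4 (OP9-Dll4) or, as control, GFP (OP9-GFP), with 3 libraries in each of the 6 groups. In the second, MEEC had spent 24 h in 20 µM RO4929097, an inhibitor of the γ-secretase that releases the active Notch fragment, or in its vehicle DMSO, before 6 h over OP9-GFP (4 libraries each). In the third, without feeder cells, MEEC were kept for 38 h on wells carrying JAG1-Fc with 20 µM RO4929097 (rJAG1 + RO), JAG1-Fc with DMSO (rJAG1), DLL4-His with the inhibitor (rDLL4 + RO), DLL4-His with DMSO (rDLL4), or no named ligand with DMSO (DMSO), the last 14 h without serum (3 libraries each). Co-cultures of 24 h were seeded at 25% confluency and those of 6 h at 50%, so in that comparison time and seeding cannot be told apart. No group of the third experiment received the inhibitor without a ligand, so an effect of RO4929097 on Notch and any other effect of it cannot be told apart there. Whether the libraries within a group stem from different cultures is not stated in the labels; the p-values therefore measure only how these libraries vary, which may be technical.

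Cells short of oxygen stabilise the HIF alpha subunits, which otherwise are hydroxylated by the EGLN prolyl hydroxylases and degraded. HIF then raises glucose uptake, the enzymes of glycolysis, the export of lactate, the removal of mitochondria, and enzymes that modify collagen, and it raises EGLN3 and other of its own brakes. HIF binds the core letters ACGTG or GCGTG in promoters and enhancers. In the embryonic heart, oxygen is low, glycolysis is a main energy source, and endocardial Notch signaling guides the formation of valves and trabeculae.

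Bnip3, Egln3 and P4ha1 were lower on rJAG1 than in DMSO cells and higher with the inhibitor on JAG1. Of these, only Bnip3 was also called higher with the inhibitor on DLL4. Pfkl and Slc16a3 were lower with the inhibitor on both ligands. The promoters of these 5 members, on which the results turn, are printed because they stand for the patterns described below. Each runs 5′ to 3′ on the gene's strand from 250 bases before to 50 after the RefSeq transcript start (GRCm38.p6). Capitals mark ACGTG or GCGTG on the printed strand, or their complements CACGT and CACGC. Bnip3 (gene at chr7:138890836-138909519 in GENCODE M21, minus strand) has its window at chr7:138909457-138909756. Egln3 (chr12:54178981-54203860, minus strand) has it at chr12:54203825-54204124, and P4ha1 (chr10:59323296-59373304, plus strand) at chr10:59323046-59323345. Pfkl (chr10:77986947-78010083, minus strand) has it at chr10:78009758-78010057, and Slc16a3 (chr11:120948480-120960868, plus strand) at chr11:120948817-120949116.
Bnip3: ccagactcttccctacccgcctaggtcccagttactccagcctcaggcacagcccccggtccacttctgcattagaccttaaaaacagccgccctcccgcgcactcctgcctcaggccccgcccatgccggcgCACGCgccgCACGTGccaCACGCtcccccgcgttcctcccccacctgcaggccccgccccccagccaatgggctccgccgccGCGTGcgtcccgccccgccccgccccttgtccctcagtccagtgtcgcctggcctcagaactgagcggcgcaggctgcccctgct
Egln3: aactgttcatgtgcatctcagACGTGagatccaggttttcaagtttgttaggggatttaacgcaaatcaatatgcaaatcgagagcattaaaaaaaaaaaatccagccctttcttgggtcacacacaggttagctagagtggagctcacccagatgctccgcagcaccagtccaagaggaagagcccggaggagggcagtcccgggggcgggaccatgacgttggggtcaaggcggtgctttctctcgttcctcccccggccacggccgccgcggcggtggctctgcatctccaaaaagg
P4ha1: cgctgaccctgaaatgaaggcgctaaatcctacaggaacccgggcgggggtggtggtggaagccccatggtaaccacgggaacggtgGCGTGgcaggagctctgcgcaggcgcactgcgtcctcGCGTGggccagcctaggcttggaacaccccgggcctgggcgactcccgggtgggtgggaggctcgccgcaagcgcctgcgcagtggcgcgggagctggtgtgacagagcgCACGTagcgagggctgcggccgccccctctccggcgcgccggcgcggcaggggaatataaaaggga
Pfkl: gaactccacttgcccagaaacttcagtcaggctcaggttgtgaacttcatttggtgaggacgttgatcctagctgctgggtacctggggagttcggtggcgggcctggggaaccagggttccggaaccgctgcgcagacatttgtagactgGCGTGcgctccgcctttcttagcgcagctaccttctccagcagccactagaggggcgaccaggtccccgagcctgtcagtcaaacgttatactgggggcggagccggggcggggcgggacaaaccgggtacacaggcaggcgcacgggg
Slc16a3: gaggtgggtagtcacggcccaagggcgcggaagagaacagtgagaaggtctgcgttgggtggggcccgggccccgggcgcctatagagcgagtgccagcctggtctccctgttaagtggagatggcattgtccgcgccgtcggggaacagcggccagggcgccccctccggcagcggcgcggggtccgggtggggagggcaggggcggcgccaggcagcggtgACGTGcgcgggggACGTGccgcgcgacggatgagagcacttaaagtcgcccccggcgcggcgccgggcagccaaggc
Bnip3 held 5 matches, of which CACGTG counts on both strands, P4ha1 held 3, Slc16a3 held 2, and Pfkl and Egln3 held 1 each. RefSeq windows were found for 31 of the 34 members, 48 windows in all, with none for Bnip3l, Plod2 and Ndrg1. ACGTG or GCGTG, on either strand, was in 37 of the 48 windows, against 43.8% of 32851 mouse windows of the same length. The members were chosen by function as hypoxia response and glycolysis genes, so this share is not independent of that choice. At least 1 window of 28 of the 31 genes held a match, a count per gene with no figure for all genes beside it. Some genes had several windows, and some of these overlap, so 1 site can count more than once. ACGTG alone was in 26 of the 48 windows (19.6% of all) and GCGTG alone in 25 (32.4% of all). GTGGGAA, a core letter string of the Notch effector RBPJ, was in 2 of the 48 windows, both of Aldoc (6.38% of all). A match is a string of letters and not a measured binding site.

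Levels are given as the deposited signal, a read count divided by a library size that the authors scaled. Changes are differences on the log2(signal + 1) scale with their standard error (SE), which understates the change of low genes such as Ankrd37 and Bnip3. A gene was called at a Benjamini-Hochberg adjusted p under 0.05 over all genes of its table in limma. Counts of members in fits without a library are given without the share of all genes called in the same fit. A change in such a count is therefore not read as particular to the members. Means are given ± SD over the libraries of a group, 3 or, in the second experiment, 4, and values per library are in the order of their numbers. Per kilobase of exon, pyruvate kinase Pkm and phosphoglycerate mutase Pgam1 were the highest members in DMSO cells of the third experiment, at 336 ± 26.7 and 309 ± 49.1 signal per kb. Next, at levels from 119 ± 24.4 to 204 ± 30.1, came Pgk1, Aldoa, Tpi1, Ldha and Eno1, whose order from Pgk1 to Tpi1 did not exceed the spread between libraries. The lowest members per kb were Ankrd37 (1.68 ± 0.617) and Pfkfb4 (0.967 ± 0.140). Ankrd37 had the fewest reads of all members, down to 11 in a library. Reads of Aldoa, Tpi1, Pgk1, Pgam1, Eno1 and Ldha may be shared with near-identical copies elsewhere in the genome, so their levels are uncertain to that extent.

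Read totals per library ran between 14101202 and 16821361 with the 3 feeders, between 19432983 and 25171944 in the inhibitor co-culture, and between 11197893 and 34188335 on recombinant ligands. The summed signal of the Notch targets Hey1, Hey2, Heyl, Hes1 and Nrarp was 125 to 152 in rJAG1, 81.7 to 92.0 in rDLL4 and 36.2 to 44.6 in DMSO libraries, and 28.8 to 35.8 in rJAG1 + RO and 26.9 to 31.8 in rDLL4 + RO libraries. Of 12 endothelial marker genes, Kdr, Tek, Eng, Nfatc1, Npr3 and Cd34 were listed, with no library at 0 for Kdr, Tek, Nfatc1, Npr3 or Cd34. Pecam1 and Cdh5 were not among the genes analysed here. A list of 12 OP9 stromal genes had 8 members listed in the third experiment, where no feeder cells were used, and its sum there was 1044 to 1169.8 in rJAG1 and 1299 to 1458 in DMSO libraries. In the co-cultures of 6 h, a table normalized apart in which 9 were listed, it was 1149.7 to 1331 in OP9-Jag1 and 1229.8 to 1703 in OP9-GFP libraries. How MEEC were separated from OP9 cells is not given in the sources used here, and fewer cells of a type and less RNA per cell cannot be told apart in bulk RNA. The 6 h libraries numbered 2 lay farther from the others of their group (median gap 0.136 to 0.169 on the log2 scale over genes) than any other co-culture library of the first experiment (0.075 to 0.131), and results at 6 h are given with and without them. In the third experiment DMSO library 3 (0.181) and rJAG1 library 2 (0.169) lay farthest.

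**Figure D1:**
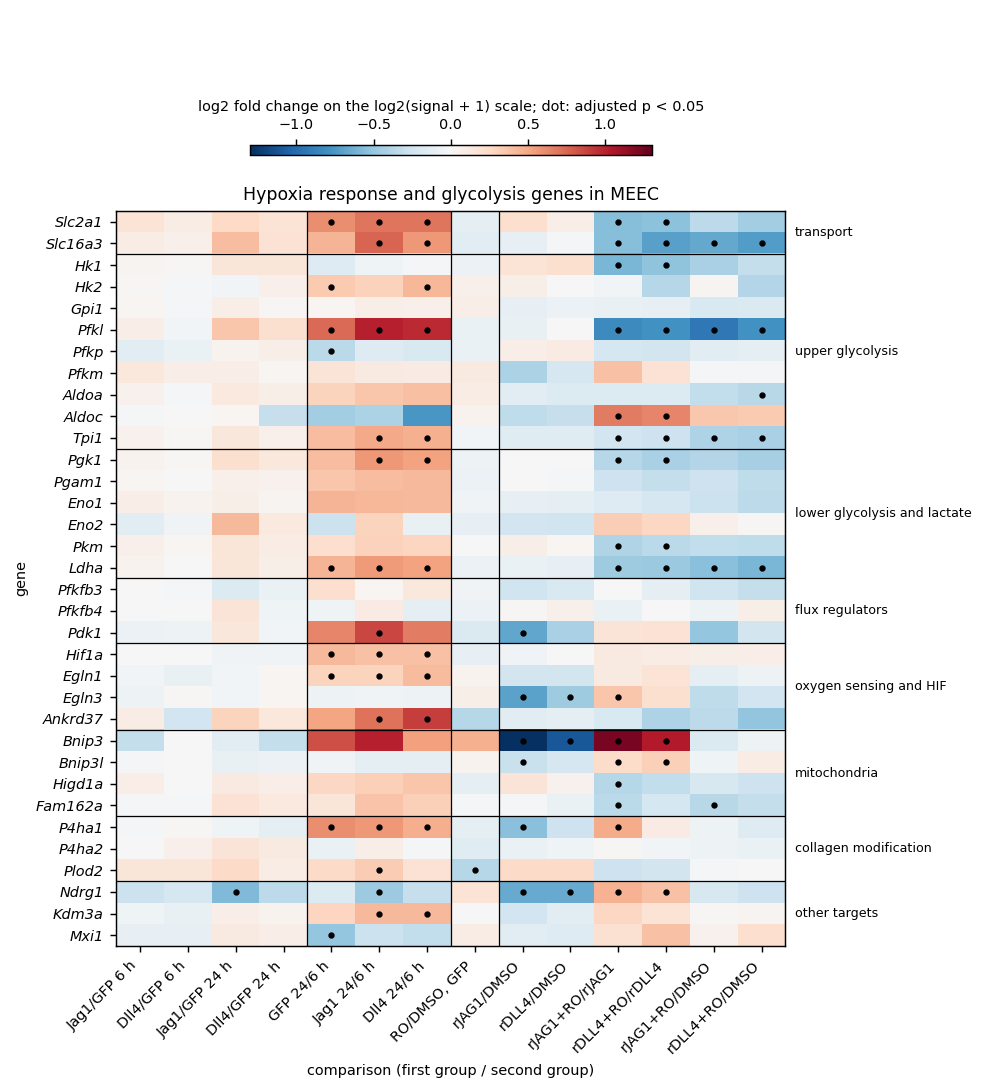
Log2 fold changes of the 34 members (rows, grouped by role) in 14 comparisons (columns, first group over second), with a dot where limma's adjusted p was under 0.05. The dots of Bnip3, Egln3 and Ndrg1 are blue in the rJAG1 and rDLL4 columns, those of Pfkl and Slc16a3 are blue in the 4 columns with a ligand and RO, and most dots of the 24 h over 6 h columns are red.

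On recombinant JAG1, 6 of the 34 members fell relative to DMSO and none rose: Pdk1, Egln3, Bnip3, Bnip3l, P4ha1 and Ndrg1. Over all genes, 4.76% were called lower and 9.58% in either direction. No transporter and no enzyme of the glycolytic chain was among them. The 6 are an oxygen sensor, a regulator of pyruvate use, 2 mitochondrial receptors, a collagen enzyme and a stress gene.

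Bnip3, a receptor that marks mitochondria for autophagy, had 5.13, 4.00 and 4.57 in rJAG1 cells, against 15.2, 12.3 and 14.4 in DMSO cells. Every rJAG1 library was below every DMSO library, and the mean was 0.327 times that of DMSO (log2 fold change -1.43 ± 0.12, adjusted p = 1.6e-06). Its relative Bnip3l, with the same role, had 150.1, 144 and 151 in rJAG1 cells, against 193, 188 and 167 in DMSO cells. The groups did not overlap, but the difference was small (log2 fold change -0.29 ± 0.069, adjusted p = 0.012), and the call was lost without DMSO library 1 (adjusted p = 0.067) and without DMSO library 2 (0.051). Per kb of exon, Bnip3 made up 4.97% ± 0.503 of the 2 receptors' signal in rJAG1 cells and 11.5% ± 1.39 in DMSO cells.

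Egln3, the oxygen sensor that HIF itself raises, had 15.6, 14.0 and 16.9 in rJAG1 cells, against 27.1, 24.9 and 25.1 in DMSO cells. The groups lay apart, at 15.5 ± 1.46 and 25.7 ± 1.24 (log2 fold change -0.70 ± 0.10, adjusted p = 1.6e-04). Its relative Egln1, the main hydroxylase of HIF in most cells, had 46.2, 42.8 and 45.5 in rJAG1 cells and 53.5, 48.4 and 57.1 in DMSO cells and did not pass the test (log2 fold change -0.23 ± 0.078, adjusted p = 0.079). Hif1a, the oxygen-regulated alpha subunit itself, overlapped between 325, 276 and 328 in rJAG1 and 341, 308 and 308 in DMSO cells (log2 fold change -0.045 ± 0.075, adjusted p = 0.8). These values are RNA levels, while HIF activity is set mainly at the protein.

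Pdk1, the kinase that keeps pyruvate out of mitochondria, had 8.84, 8.03 and 11.4 in rJAG1 cells, against 14.6, 13.7 and 18.8 in DMSO cells (log2 fold change -0.68 ± 0.13, adjusted p = 0.0036). P4ha1, a catalytic subunit of collagen prolyl hydroxylase, had 263, 214 and 233 in rJAG1 cells, against 353, 314 and 365 in DMSO cells (log2 fold change -0.54 ± 0.074, adjusted p = 1.6e-04). Neither gene's groups overlapped. Ndrg1, a gene induced by hypoxia and other stress, had 148, 131 and 116 in rJAG1 cells, against 235, 216 and 175 in DMSO cells (log2 fold change -0.66 ± 0.11, adjusted p = 7.5e-04). Its rJAG1 libraries too were all below the DMSO libraries. The calls of Bnip3, Egln3, Pdk1, P4ha1 and Ndrg1 held without any 1 of the 6 libraries.

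Among the members that did not pass the test on rJAG1, Pfkl was 61.7 ± 1.81 in rJAG1 and 67.1 ± 13.9 in DMSO cells (log2 fold change -0.10 ± 0.11, adjusted p = 0.67). Ldha was 399.5 ± 11.5 in rJAG1 and 429.6 ± 93.5 in DMSO cells (log2 fold change -0.082 ± 0.12, adjusted p = 0.77). The DMSO library 3 was the highest library of this experiment for Pfkl (82.5) and for Ldha (526), so the SD of DMSO was wide for both. With the replicate number as a block, which same-numbered libraries' shared deviations allow, 10 members were called, 9 lower and 1 higher, against 15.1% of all genes. The additional 4 were Pfkm (-0.41, adjusted p = 0.0024), Kdm3a (-0.25, 0.025), Egln1 (-0.23, 0.049) and Plod2, the 1 that was higher (0.24, 0.0069).

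On recombinant DLL4, 3 members fell relative to DMSO, Egln3, Bnip3 and Ndrg1, and none rose, against 1.05% of all genes called lower and 3.5% in either direction. The DMSO libraries are those of the rJAG1 comparison, so the values of the ligands are set side by side and not counted as separate evidence. Bnip3 had 6.38, 6.31 and 5.19 in rDLL4 cells, each below the lowest DMSO library, at 12.3 (log2 fold change -1.10 ± 0.12, adjusted p = 9.6e-05). Ndrg1 had 148, 126 and 122 in rDLL4 cells, against 235, 216 and 175 in DMSO cells, with no overlap (log2 fold change -0.65 ± 0.11, adjusted p = 0.0024). Egln3 had 19.4, 19.2 and 16.6 in rDLL4 cells, against 27.1, 24.9 and 25.1 in DMSO cells. Its groups did not overlap either (log2 fold change -0.46 ± 0.10, adjusted p = 0.012), but the call was lost without rDLL4 library 3 (adjusted p = 0.074) and without DMSO library 1 (0.061). Without DMSO library 3 the count of members called was 5.

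P4ha1, called on rJAG1, had 283, 290.3 and 281 in rDLL4 cells and did not pass (log2 fold change -0.27 ± 0.074, adjusted p = 0.061), nor did Pdk1, at 11.0, 11.3 and 11.7 (log2 fold change -0.42 ± 0.13, adjusted p = 0.12). With the replicate block 7 members were called on rDLL4, against 6.47% of all genes: Pdk1 (adjusted p = 0.017), P4ha1 (0.022) and Bnip3l (0.048) were then lower and Plod2 (0.25, 0.014) higher, beside the 3 named. Set against rJAG1 directly, rDLL4 cells differed in no member by limma, against 0.231% of all genes, in none by edgeR and in none by DESeq2. At an unadjusted limma p under 0.05 there were 3 members, beside 958 of all 13407 genes. The 3 with the smallest unadjusted p were P4ha1 (0.27 ± 0.074, adjusted p = 0.24), Bnip3 (0.32 ± 0.12, 0.5) and Egln3 (0.24 ± 0.10, 0.6). A p above the threshold does not show that the ligands acted alike.

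**Figure D2:**
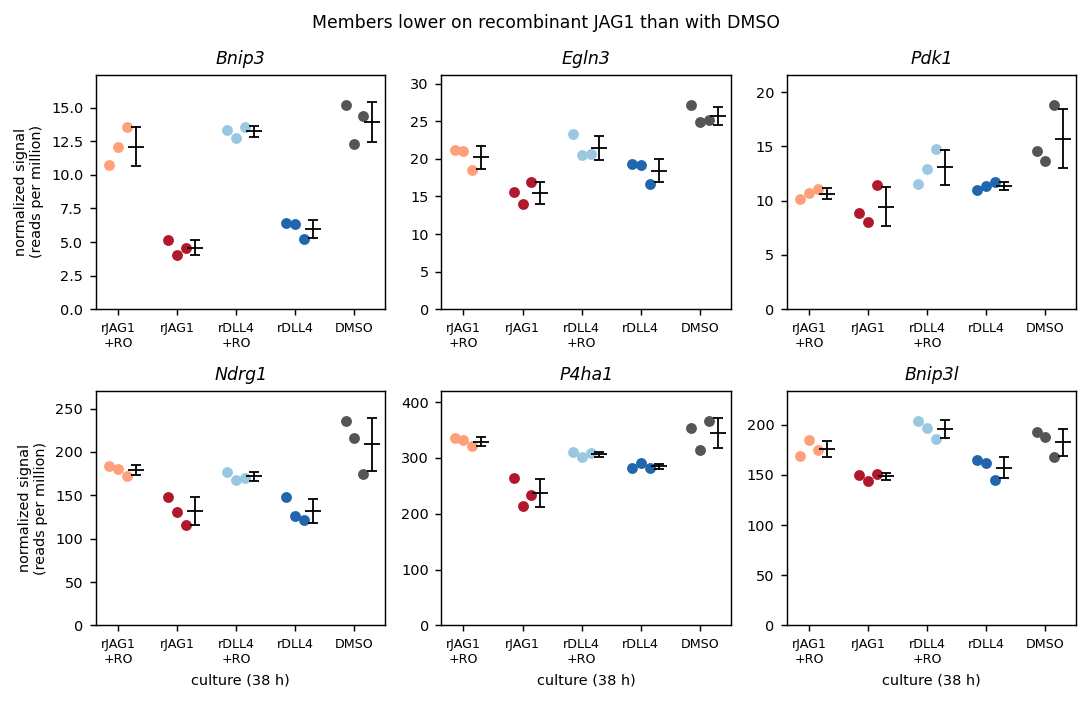
Signal (reads scaled to library size) of the 6 members called lower in rJAG1 than in DMSO cells, by group of the third experiment; points are libraries and black bars mean ± SD. Bnip3 sat between 4.00 and 5.13 in rJAG1 and between 5.19 and 6.38 in rDLL4 libraries, below every library of rJAG1 + RO, rDLL4 + RO and DMSO.

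Other HIF targets and other genes of glucose metabolism stood beside these members, in lists chosen with earlier results of these data known. Of 28 other HIF target genes, 27 were listed, and 6 rose while 2 fell on rJAG1 and 4 rose while 1 fell on rDLL4. Car9, a surface carbonic anhydrase, fell to 2.34 ± 0.457 in rJAG1 and 4.25 ± 0.689 in rDLL4 cells, against 11.5 ± 4.75 in DMSO cells (log2 fold change -1.82 ± 0.24, adjusted p = 1.0e-04 for rJAG1, -1.17 ± 0.24 for rDLL4). Ak4, a mitochondrial adenylate kinase, fell on rJAG1 too (-0.95 ± 0.28). In the other direction, Nfil3, a bZIP transcription factor, rose on rJAG1 (1.01 ± 0.17) and rDLL4 (0.69 ± 0.17), Tmem45a on rJAG1 (0.59 ± 0.16), and Loxl2, a collagen crosslinking enzyme, and Gbe1, the glycogen branching enzyme, on rDLL4 (0.49 ± 0.085 and 0.42 ± 0.089). Vegfa, the vascular growth factor and named after its values were seen, was 114 ± 9.43 in rJAG1 cells, against 77.2 ± 10.8 in DMSO cells (log2 fold change 0.57 ± 0.13, adjusted p = 0.0081). Of 23 other genes of glucose metabolism, 19 were listed, with 1 higher and 2 lower on rJAG1 and 1 lower on rDLL4. Slc16a1, the lactate carrier that works alongside Slc16a3, fell on rJAG1 (-0.75 ± 0.091) and on rDLL4 (-0.49 ± 0.091). Ldhb, the lactate dehydrogenase subunit that pairs with Ldha, rose on rJAG1 (0.75 ± 0.18), and the phosphoglucomutase Pgm2 fell (-0.26 ± 0.067). Cited2, which restrains HIF, was the 1 gene of 11 listed for the HIF machinery to fall on rJAG1 (-0.40 ± 0.092).

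The summed endothelial markers were 97.7 to 111 in rJAG1 and 116 to 146 in rDLL4 libraries, against 129 to 193 in DMSO libraries, and the stromal list was 1044 to 1169.8 in rJAG1 and 1194 to 1307 in rDLL4 libraries, against 1299 to 1458 in DMSO libraries. The list did not move as one: of the 6 endothelial genes listed Cd34 was called lower on each ligand, and the list's median log2 difference was 0.17 on rJAG1 and 0.072 on rDLL4. Of the 8 stromal genes, 1 was called higher and 1 lower on rJAG1 (median -0.21) and none on rDLL4 (median 0.023). The part of these lists in the changes of the members was not tested. Over the 34 members the median log2 difference was -0.11 on rJAG1 and -0.11 on rDLL4, beside 0.0014 and -0.00051 over all genes.

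Adding RO4929097 on JAG1 moved 16 members relative to rJAG1 alone, 10 lower and 6 higher, against 18.4% of all genes (8.78% lower, 9.58% higher). The RNA of the glucose carrier Slc2a1 and the lactate carrier Slc16a3 fell, as did that of enzymes between hexokinase and lactate dehydrogenase, Hk1, Pfkl, Tpi1, Pgk1, Pkm and Ldha, with the mitochondrial genes Higd1a and Fam162a. Bnip3, Bnip3l, Egln3, P4ha1, Ndrg1 and Aldoc rose. Of the 6 members that were lower on rJAG1 than in DMSO, 5 were thus among the 6 higher with the inhibitor. Both comparisons use the rJAG1 libraries, so a high or low rJAG1 library moves them in opposite directions. The matching share of all genes was not counted, so the overlap is not read as particular to the members.

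Slc2a1, the main glucose importer of most cells, had 42.6, 36.3 and 40.1 in rJAG1 + RO cells, against 64.8, 58.4 and 53.5 in rJAG1 cells (log2 fold change -0.56 ± 0.13, adjusted p = 0.0057). Slc16a3, which exports lactate from glycolytic cells, had 61.7, 58.8 and 51.9 in rJAG1 + RO cells, against 95.9, 83.3 and 75.4 in rJAG1 cells (log2 fold change -0.55 ± 0.093, adjusted p = 5.6e-04). No library with the inhibitor reached the lowest library without it for either carrier. Hk1, a hexokinase that traps glucose in the cell, had 14.5, 15.9 and 14.7 in rJAG1 + RO cells, against 27.4, 17.0 and 26.9 in rJAG1 cells (log2 fold change -0.60 ± 0.14, adjusted p = 0.0071). Its rJAG1 library 2 lay near the inhibited libraries. Hk2, the hexokinase most often tied to HIF, did not pass (log2 fold change -0.036 ± 0.20, adjusted p = 0.93).

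Pfkl, the liver form of phosphofructokinase, which commits sugar to glycolysis, had 34.6, 32.4 and 35.8 in rJAG1 + RO cells, against 61.0, 60.4 and 63.8 in rJAG1 cells. The inhibited libraries lay at 0.555 times the others (log2 fold change -0.83 ± 0.11, adjusted p = 5.1e-05), the lowest log2 difference of the enzymes. The platelet form Pfkp (log2 fold change -0.23 ± 0.082, adjusted p = 0.071) and the muscle form Pfkm (log2 fold change 0.38 ± 0.17, adjusted p = 0.13) did not pass. Per kb, Pfkl made up 28.5% ± 3.27 of phosphofructokinase signal in rJAG1 + RO cells and 45.1% ± 2.82 in rJAG1 cells. Ldha, which turns pyruvate into lactate, had 316, 266 and 287 in rJAG1 + RO cells, against 409, 387 and 402 in rJAG1 cells (log2 fold change -0.47 ± 0.12, adjusted p = 0.014). Again no library overlapped.

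Aldoc, an aldolase mostly studied in brain, went the other way from the chain, with 20.1, 21.1 and 21.9 in rJAG1 + RO cells, against 12.5, 12.8 and 12.9 in rJAG1 cells (log2 fold change 0.68 ± 0.16, adjusted p = 0.0079). The main aldolase of these cells, Aldoa, had 472, 428 and 430.2 in rJAG1 + RO and 524, 491 and 484 in rJAG1 cells and did not pass (log2 fold change -0.17 ± 0.083, adjusted p = 0.17). Bnip3 had 10.7, 12.1 and 13.5 in rJAG1 + RO cells, against 5.13, 4.00 and 4.57 in rJAG1 cells, 2.65 times as much (log2 fold change 1.23 ± 0.12, adjusted p = 2.9e-06). P4ha1 had 335, 332 and 321 in rJAG1 + RO cells, against 263, 214 and 233 in rJAG1 cells (log2 fold change 0.48 ± 0.074, adjusted p = 2.6e-04). All 3 genes were higher in each inhibited library than in each rJAG1 library.

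The other members called had smaller changes. Pkm (-0.39 ± 0.082), Pgk1 (-0.37 ± 0.10) and Tpi1 (-0.25 ± 0.072) were lower with the inhibitor, at adjusted p = 0.0032, 0.02 and 0.028. Higd1a, a mitochondrial membrane protein (-0.37 ± 0.11, adjusted p = 0.031), and Fam162a, a mitochondrial protein that hypoxia raises (-0.35 ± 0.082, 0.0069), were lower too. Ndrg1 (0.45 ± 0.11, 0.0079), Egln3 (0.36 ± 0.10, 0.015) and Bnip3l (0.24 ± 0.069, 0.025) were higher. Of the 16, the calls of 10 held without any 1 library. Tpi1 and Higd1a lost the call without 4 of the 6 libraries (adjusted p up to 0.11 and 0.12), Bnip3l without 4 (0.11), Egln3 and Pgk1 without 3 (0.064 and 0.086) and Ldha without 1 (0.068). Without rJAG1 + RO library 2 the count of members was 10. With the replicate block it was 22 (27.1% of all genes).

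**Figure D3:**
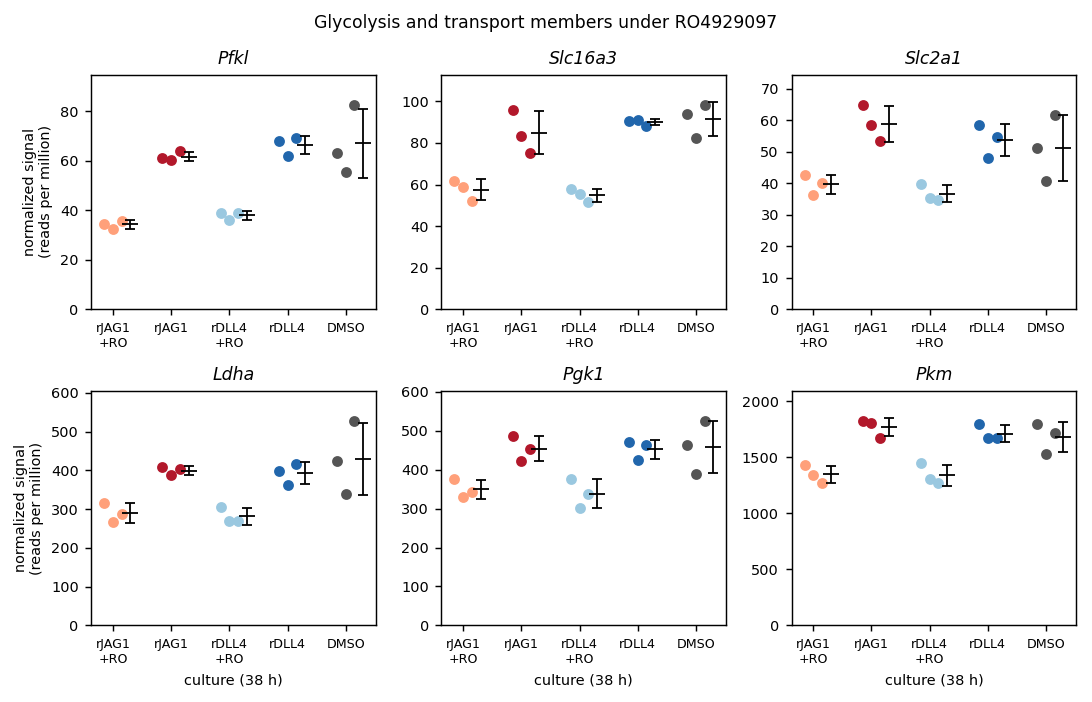
Signal (reads scaled to library size) of 6 members called lower with RO4929097 on both ligands, by group of the third experiment; points are libraries and black bars mean ± SD. Pfkl sat between 32.4 and 39.0 in the 6 libraries with RO4929097 and between 55.5 and 82.5 in the 9 libraries of rJAG1, rDLL4 and DMSO.

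On DLL4 the inhibitor moved 12 members relative to rDLL4 alone, 8 lower and 4 higher, against 10.7% of all genes (5.76% lower, 4.91% higher). The comparison shares no library with that on JAG1. The 8 lower members, Slc2a1, Slc16a3, Hk1, Pfkl, Tpi1, Pgk1, Pkm and Ldha, were all lower with the inhibitor on JAG1 as well. The 4 higher, Aldoc, Bnip3, Bnip3l and Ndrg1, were higher there as well. How many of all genes were called alike in both comparisons was not counted, so this overlap is not read as particular to the members.

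Slc2a1 had 39.8, 35.4 and 34.9 in rDLL4 + RO cells, against 58.4, 48.2 and 54.6 in rDLL4 cells (log2 fold change -0.54 ± 0.13, adjusted p = 0.012), and Slc16a3 had 57.8, 55.3 and 51.5 in rDLL4 + RO cells, against 90.8, 91.1 and 88.4 in rDLL4 cells (log2 fold change -0.71 ± 0.093, adjusted p = 1.2e-04). Neither carrier's groups overlapped. Hk1 had 15.6, 17.8 and 15.7 in rDLL4 + RO cells, against 21.7, 24.5 and 25.3 in rDLL4 cells (log2 fold change -0.52 ± 0.14, adjusted p = 0.026). Pfkl had 39.0, 35.9 and 39.0 in rDLL4 + RO cells, against 67.8, 62.1 and 69.0 in rDLL4 cells (log2 fold change -0.79 ± 0.11, adjusted p = 1.7e-04), and its per kb share of phosphofructokinase was 30.6% ± 3.87 in rDLL4 + RO and 44.5% ± 2.66 in rDLL4 cells. For both enzymes the groups lay apart.

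Pgk1, which makes ATP late in the chain, had 375, 301 and 337 in rDLL4 + RO cells, against 469.9, 425 and 463 in rDLL4 cells (log2 fold change -0.43 ± 0.10, adjusted p = 0.015). Ldha had 306, 268 and 269 in rDLL4 + RO cells, against 399, 363 and 417 in rDLL4 cells (log2 fold change -0.48 ± 0.12, adjusted p = 0.017). Again no inhibited library reached the others. Aldoc had 20.1, 21.7 and 21.0 in rDLL4 + RO cells, against 13.2, 15.8 and 10.7 in rDLL4 cells (log2 fold change 0.64 ± 0.16, adjusted p = 0.018). Bnip3 had 13.3, 12.8 and 13.6 in rDLL4 + RO cells, against 6.38, 6.31 and 5.19 in rDLL4 cells, 2.22 times as much (log2 fold change 1.03 ± 0.12, adjusted p = 3.5e-05). Both were higher in each inhibited library.

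Egln3 (log2 fold change 0.21 ± 0.10, adjusted p = 0.2) and P4ha1 (log2 fold change 0.11 ± 0.074, adjusted p = 0.43), which rose with the inhibitor on JAG1, did not pass on DLL4; the difference between these 2 effects was not tested. Bnip3, Pfkl and Slc16a3 kept their calls without any 1 library. The others lost theirs without 1 or more, up to adjusted p = 0.061 for Slc2a1, 0.099 for Hk1, 0.075 for Ldha, 0.086 for Pgk1, 0.058 for Pkm, 0.13 for Tpi1, 0.096 for Aldoc, 0.13 for Ndrg1 and 0.05037 for Bnip3l. The count of members was 6 without rDLL4 library 1 or rDLL4 + RO library 2, and 5 without rDLL4 library 3 or rDLL4 + RO library 3.

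The rJAG1 against DMSO and the rDLL4 + RO against rDLL4 comparisons have no library in common. Bnip3, Bnip3l and Ndrg1 were called lower in rJAG1 and higher in rDLL4 + RO, which is 50.0% of the 6 lower and 75.0% of the 4 higher members. Of all genes tested, 2.73% were called so in both, which is 57.4% of the 638 genes lower in rJAG1 and 55.6% of the 658 higher in rDLL4 + RO. No member was called lower in both. In the other pair with no library in common, Egln3, Bnip3 and Ndrg1, all 3 members lower on rDLL4, were among the 6 higher in rJAG1 + RO against rJAG1, 100% of the lower and 50.0% of the higher members. Of all genes 1.02% were called so in both, which is 97.2% of the 141 genes lower on rDLL4 and 10.7% of the 1284 higher in rJAG1 + RO.

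**Figure D4:**
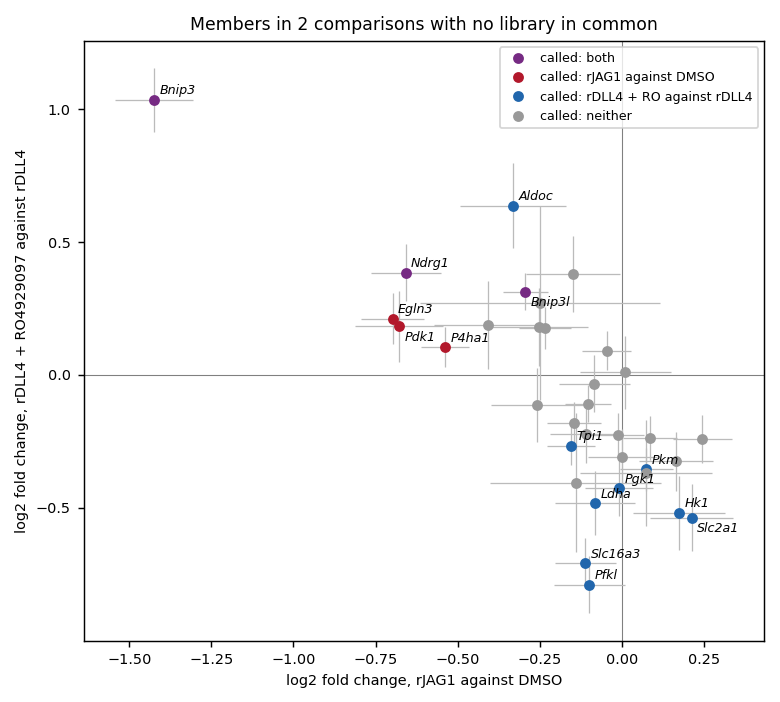
Log2 fold change of each of the 34 members in rJAG1 against DMSO cells (horizontal) and in rDLL4 + RO against rDLL4 cells (vertical), with SE bars, coloured by the comparison in which it was called. Bnip3, at -1.43 and 1.03, lies farthest to the upper left, and Pfkl and Slc16a3 lie lowest, near 0 on the horizontal axis.

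Of the 27 other HIF targets listed, 10 fell and 1 rose with the inhibitor on JAG1, and 11 fell and 1 rose on DLL4. The 1 that rose was Car9 both times, at 13.0 ± 1.27 in rJAG1 + RO against 2.34 ± 0.457 in rJAG1 cells (log2 fold change 2.08 ± 0.24, adjusted p = 1.5e-05) and 14.0 ± 2.15 in rDLL4 + RO against 4.25 ± 0.689 in rDLL4 cells (log2 fold change 1.51 ± 0.24, adjusted p = 5.6e-04). Nfil3 (-0.93 ± 0.17) and Tmem45a (-0.74 ± 0.16) fell on JAG1, and Lox, a collagen crosslinking enzyme (-0.76 ± 0.12), and Car12, a carbonic anhydrase (-0.73 ± 0.15), on DLL4. Among 11 listed genes of the HIF machinery, Arnt2, a dimer partner of HIF alpha subunits, rose on JAG1 (0.85 ± 0.15) and DLL4 (0.63 ± 0.15), and so did Cited2 (0.46 ± 0.092 and 0.35 ± 0.092). Of the 19 other genes of glucose metabolism, 1 rose and 6 fell on JAG1, and 2 rose and 3 fell on DLL4. Slc16a1 rose on JAG1 (1.02 ± 0.091) and DLL4 (0.81 ± 0.091), opposite to Slc16a3. Ldhb fell on JAG1 (-0.92 ± 0.18), and the phosphoglucomutase Pgm1 fell on JAG1 (-0.50 ± 0.10) and DLL4 (-0.39 ± 0.10), as did the enolase Eno3 (-0.36 ± 0.10 on JAG1 and -0.36 ± 0.10 on DLL4). G6pdx, the entry to the pentose phosphate pathway, fell on DLL4 (-0.30 ± 0.079).

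Endothelial marker sums were 143 to 165 in rJAG1 + RO against 97.7 to 111 in rJAG1 libraries and 162 to 173 in rDLL4 + RO against 116 to 146 in rDLL4 libraries. Stromal sums were 1444 to 1504 in rJAG1 + RO against 1044 to 1169.8 in rJAG1 libraries and 1453 to 1566 in rDLL4 + RO against 1194 to 1307 in rDLL4 libraries. Of the 6 endothelial genes Cd34 and Tek were called higher and Kdr, Eng and Nfatc1 lower on JAG1, with a median of -0.33, and Cd34 higher and Nfatc1 lower on DLL4, with a median of -0.30. Of the 8 stromal genes 3 were called higher and 2 lower on JAG1 (median 0.36), and 2 higher and 2 lower on DLL4 (median 0.047). The part of these lists in the members' changes was not tested. The 15 enzymes of the chain from hexokinase to lactate dehydrogenase made up 0.454, 0.419 and 0.422% of all signal in rJAG1 + RO against 0.530, 0.526 and 0.517% in rJAG1 libraries, and 0.451, 0.412 and 0.411% in rDLL4 + RO against 0.526, 0.494 and 0.521% in rDLL4 libraries.

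Against DMSO, for which neither ligand nor inhibitor was named, 5 members were lower in rJAG1 + RO cells (against 0.567% of all genes lower and 0.94% in either direction), and 5 in rDLL4 + RO cells (0.85% lower, 1.4% in either direction). None was higher. Pfkl, Slc16a3, Ldha and Tpi1 were in both, with Fam162a on JAG1 and Aldoa on DLL4; the comparisons share the DMSO libraries. Pfkl, at 34.3 ± 1.76 in rJAG1 + RO and 38.0 ± 1.76 in rDLL4 + RO cells, against 67.1 ± 13.9 in DMSO cells, fell by 0.93 and by 0.79 on the log2 scale (adjusted p = 5.5e-04 and 0.0016). Slc16a3, at 57.5 ± 4.99 in rJAG1 + RO and 54.9 ± 3.20 in rDLL4 + RO cells, against 91.5 ± 8.34 in DMSO cells, changed by -0.66 ± 0.093 and -0.72 ± 0.093 (adjusted p = 0.0022 and 0.0013). Neither gene's libraries with the inhibitor overlapped those of DMSO.

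Ldha was 266 to 316 in rJAG1 + RO and 268 to 306 in rDLL4 + RO cells, against 423, 339.6 and 526 in DMSO cells (log2 fold change -0.55 ± 0.12, adjusted p = 0.045 on JAG1; log2 fold change -0.59 ± 0.12, adjusted p = 0.024 on DLL4). Tpi1, the triose isomerase, had 410.3, 378 and 384 in rJAG1 + RO and 414, 377 and 364 in rDLL4 + RO cells, against 545, 474 and 531 in DMSO cells (-0.40 ± 0.072 and -0.42 ± 0.072; adjusted p = 0.012 and 0.0083). Fam162a had 32.0, 28.8 and 31.0 in rJAG1 + RO cells, against 40.9, 38.8 and 39.2 in DMSO cells (log2 fold change -0.37 ± 0.082, adjusted p = 0.04996), and Aldoa had 475, 404 and 417 in rDLL4 + RO cells, against 576, 496 and 589.8 in DMSO cells (log2 fold change -0.36 ± 0.083, adjusted p = 0.048). For all 4 genes each inhibited library was below each DMSO library.

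Of the members that were lower on a ligand than in DMSO, Bnip3 was 12.1 ± 1.42 in rJAG1 + RO and 13.2 ± 0.419 in rDLL4 + RO cells, against 14.0 ± 1.49 in DMSO cells (-0.19 ± 0.12 and -0.067 ± 0.12; adjusted p = 0.71 and 0.89). Egln3 was 20.2 ± 1.52 in rJAG1 + RO and 21.5 ± 1.58 in rDLL4 + RO cells, against 25.7 ± 1.24 in DMSO cells (-0.33 ± 0.10 and -0.25 ± 0.10; adjusted p = 0.14 and 0.29). Neither passed the test, which does not show that their levels were equal. Of the 27 other HIF targets, 1 fell in rJAG1 + RO cells, Lox (-0.70 ± 0.12), and 3 in rDLL4 + RO cells, among them Lox (-0.77 ± 0.12) and Mif (-0.41 ± 0.091). The calls against DMSO depended on single libraries, apart from those of Pfkl and Slc16a3. On JAG1 the count was 8 without DMSO library 2, 3 without DMSO library 3 or rJAG1 + RO library 1, and 2 without DMSO library 1, rJAG1 + RO library 2 or rJAG1 + RO library 3. On DLL4 it was 12 without DMSO library 2, 3 without DMSO library 1, DMSO library 3 or rDLL4 + RO library 2, and 2 without rDLL4 + RO library 3. In a fit of these 2 groups alone it was 0 on JAG1 and 1 on DLL4 (0.119% and 0.164% of all genes), and with the replicate block 10 on JAG1 and 13 on DLL4, against 2.9% and 4.38% of all genes.

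In the co-culture with OP9-GFP, 1 member differed after RO4929097 treatment of MEEC, against 0.909% of all genes. Plod2, the lysyl hydroxylase that shapes collagen crosslinks, had 177, 186, 198 and 192 in MEEC treated with RO4929097, against 234, 236, 244 and 258 in MEEC treated with DMSO. All 4 treated libraries were below all 4 DMSO libraries (log2 fold change -0.37 ± 0.053, adjusted p = 0.0099), and the call held without any 1 of the 8. In the third experiment Plod2 was 371, 352 and 348 in rJAG1 + RO against 458, 436 and 395 in rJAG1 cells (log2 fold change -0.27 ± 0.09, adjusted p = 0.052) and 388, 357 and 346 in rDLL4 + RO against 456, 435 and 399 in rDLL4 cells (log2 fold change -0.24 ± 0.09, adjusted p = 0.11), and passed in neither.

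The members next by unadjusted p did not pass. Ankrd37, an ankyrin repeat protein and HIF target, had 0.917, 0.747, 0.904 and 1.06 in treated and 1.64, 1.24, 1.60 and 1.37 in DMSO libraries (log2 fold change -0.37 ± 0.12, adjusted p = 0.27). Its groups did not overlap. P4ha2, a second collagen prolyl hydroxylase subunit, had 38.9, 43.3, 42.3 and 40.9 in treated and 42.3, 53.4, 43.4 and 46.9 in DMSO libraries (log2 fold change -0.16 ± 0.076, adjusted p = 0.5). Bnip3 had 12.6, 9.15, 5.77 and 5.35 in treated and 7.92, 7.37, 3.70 and 3.71 in DMSO libraries (log2 fold change 0.46 ± 0.28, adjusted p = 0.65). Libraries 1 and 2 were high and libraries 3 and 4 low in each group, so the groups overlapped although the treated library of each number was the higher. With the replicate number as a block Bnip3 was called as higher (adjusted p = 0.033), 2 members in all, against 3.29% of all genes. Pfkl, 58.2 ± 6.46 in treated and 62.0 ± 8.15 in DMSO libraries, did not pass (log2 fold change -0.088 ± 0.10, adjusted p = 0.84), nor did Slc16a3 (log2 fold change -0.14 ± 0.091, adjusted p = 0.67). Of 26 other HIF targets listed, Lox (-0.69 ± 0.11) and Bhlhe40 (-0.42 ± 0.056) fell, and of the HIF machinery Cited2 rose (0.39 ± 0.075). Endothelial sums were 108 to 121 in treated against 92.9 to 101 in DMSO libraries, with none of 5 listed genes called and a median of -0.047, and stromal sums were 1351 to 2111 in treated against 1255 to 2063 in DMSO libraries, with none of 8 called; the part of these lists was not tested.

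Over feeder cells expressing Jag1, 1 member differed from OP9-GFP at 24 h, against 2.02% of all genes. None differed at 6 h (0.101% of all genes) by limma, edgeR or DESeq2. At an unadjusted limma p under 0.05 there was 1 member at 6 h, beside 692 of all 13886 genes. Ndrg1 had 42.0, 51.2 and 55.5 over OP9-Jag1 for 24 h, against 68.0, 75.3 and 78.3 over OP9-GFP. The groups did not overlap (log2 fold change -0.57 ± 0.12, adjusted p = 0.014), but the call was lost without OP9-GFP library 2 (adjusted p = 0.068), OP9-GFP library 3 (0.060) or OP9-Jag1 library 1 (0.092), leaving 0 members called. At 6 h Ndrg1 had 63.0, 68.0 and 76.6 over OP9-Jag1 and 76.8, 87.2 and 87.8 over OP9-GFP (-0.28 ± 0.12, adjusted p = 0.86), and the change of the effect between the times did not pass (-0.30 ± 0.16, adjusted p = 1). Ndrg1 was also lower on recombinant JAG1 in the third experiment, which shares no library with the first. Without the 6 h libraries numbered 2, no member was called at 6 h over OP9-Jag1 or OP9-Dll4 against OP9-GFP, between the 2 ligands at 6 h, or in the change of either ligand's effect. Of the 27 other HIF targets, Lox was lower over OP9-Jag1 at 24 h (-0.53 ± 0.11).

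At 24 h the carriers, Pfkl and Plod2 lay higher over OP9-Jag1 without passing the test. Slc16a3 had 154, 146 and 209 over OP9-Jag1, against 130.5, 102 and 152 over OP9-GFP (0.40 ± 0.16, adjusted p = 0.33). Pfkl had 174, 144 and 181 over OP9-Jag1, against 141, 106 and 142 over OP9-GFP (0.36 ± 0.22, adjusted p = 0.68). Slc2a1 had 105, 99.8 and 126 over OP9-Jag1, against 94.1, 80.2 and 102 over OP9-GFP (0.26 ± 0.11, adjusted p = 0.39). Within each number the OP9-Jag1 library was the higher of the pair for all 3 genes, but only the Pfkl groups did not overlap. Plod2 had 271, 306 and 327 over OP9-Jag1, against 247, 214 and 305 over OP9-GFP (0.25 ± 0.10, adjusted p = 0.38). At 6 h, Slc2a1 (0.17 ± 0.11) and Plod2 (0.16 ± 0.10) had the smallest unadjusted p after Ndrg1, 0.13 and 0.14.

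With the replicate number as a block, 12 members were called at 24 h over OP9-Jag1, 10 higher and 2 lower, against 10.9% of all genes (5.55% higher). The higher were Slc2a1 (adjusted p = 0.0044), Slc16a3 (6.4e-05), Pfkl (9.0e-05), Tpi1, Pgk1, Eno2, Pkm, Ldha, Fam162a and Plod2, and the lower Ndrg1 (6.3e-07) and Pfkfb3, which makes the sugar bisphosphate that activates phosphofructokinase. The block also gave 1 member at 6 h over OP9-Jag1, Ndrg1, which was lower (adjusted p = 0.0044), against 3.36% of all genes. The median of the 34 members at 24 h was 0.12 on the log2 scale without the block, beside 0.0036 over all genes. The 15 enzymes made up 0.836, 0.748 and 0.816% of signal over OP9-Jag1 and 0.746, 0.679 and 0.756% over OP9-GFP at 24 h. Endothelial marker sums at 24 h were 70.9 to 82.7 over OP9-Jag1 and 98.8 to 101 over OP9-GFP, and stromal sums 1414 to 1502 over OP9-Jag1 and 1437 to 1713 over OP9-GFP. Of the endothelial genes Cd34 was called lower, and the list's median was 0.15; of 9 stromal genes none was called (median -0.056). The part of these lists in the values was not tested.

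Over OP9-Dll4 no member differed from OP9-GFP at 6 h (0.0072% of all genes) or at 24 h (0.511%) by limma, edgeR or DESeq2. Of the 5 Notch targets Hey1, Hey2, Heyl, Hes1 and Nrarp, limma called none at 6 h and 3 higher at 24 h over OP9-Dll4. Over OP9-Jag1 it called 3 of them higher at 6 h and 4 at 24 h. At an unadjusted limma p under 0.05 there were 0 members at 6 h and 2 at 24 h over OP9-Dll4, beside 539 and 944 of all 13886 genes. The smallest unadjusted p at 24 h was that of Ndrg1, with 48.4, 59.5 and 68.4 over OP9-Dll4, against 68.0, 75.3 and 78.3 over OP9-GFP (log2 difference -0.34 ± 0.12, adjusted p = 0.38). Hk1 (0.16 ± 0.076, adjusted p = 0.73) and Slc2a1 (0.18 ± 0.11, 0.95) followed. At 6 h the smallest unadjusted p values, 0.075 to 0.17, were those of Ndrg1 (-0.22 ± 0.12), Plod2 (0.15 ± 0.10) and Ankrd37 (-0.25 ± 0.17). The OP9-GFP libraries are those of the OP9-Jag1 comparison. With the block, 3 members were called at 24 h, Pfkl and Pgk1 higher and Ndrg1 lower (5.82% of all genes), and 1, Ndrg1, at 6 h (1.17%; adjusted p = 0.046). A list of 10 cardiomyocyte genes summed to 43.8 to 79.1 over OP9-Dll4 against 29.5 to 33.2 over OP9-GFP at 24 h, with 4 of 6 listed called higher (median 1.57). Endothelial sums were 74.2 to 83.5 over OP9-Dll4 against 98.8 to 101 over OP9-GFP, with Cd34 called lower and a median of 0.069. The part of these lists was not tested. Set directly against OP9-Jag1, OP9-Dll4 gave no member at 6 h (0.0% of all genes) or 24 h (0.0288%) by limma, edgeR or DESeq2. At an unadjusted limma p under 0.05 there were 0 members at either time, beside 258 genes at 6 h and 267 at 24 h. Ankrd37 at 6 h (-0.35 ± 0.17) and Ndrg1 at 24 h (0.24 ± 0.12) had the smallest; with the block, Ndrg1 was higher over OP9-Dll4 than over OP9-Jag1 at 24 h (adjusted p = 0.04965; 0.483% of all genes called). Neither ligand's effect differed between 24 h and 6 h in any member by limma, edgeR or DESeq2, against 0.0072% of all genes for each ligand in limma. No member had an unadjusted limma p under 0.05, beside 480 genes for Jag1 and 390 for Dll4.

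Between 24 h and 6 h of co-culture 14, 12 and 9 members differed over the OP9-Jag1, OP9-Dll4 and OP9-GFP feeders, all but 3 of these calls being higher at 24 h. Over OP9-Jag1, 14 were called, 13 higher (against 14.7% of all genes, 7.14% higher). Over OP9-Dll4, 12 were called, all higher (17.4% of all genes, 9.09% higher). Over OP9-GFP, 9 were called, 7 higher (19.2% of all genes, 9.45% higher), so the members' share in either direction was 26.5% beside 19.2%. The 3 comparisons have no library in common. Slc2a1, Pfkl, Ldha, Hif1a, Egln1 and P4ha1 were higher over all 3 feeders, 17.6% of the 34 members, beside 4.62% of all genes. They are 42.9% of the 14 members higher over any feeder, beside 35.5% of the 1808 genes higher over any.

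Slc2a1 had 105, 99.8 and 126 over OP9-Jag1 at 24 h, against 71.9, 60.5 and 71.1 at 6 h (log2 fold change 0.69 ± 0.11, adjusted p = 6.6e-04). Over OP9-Dll4 it had 103, 91.0 and 119 at 24 h, against 69.7, 60.9 and 61.3 at 6 h (log2 fold change 0.69 ± 0.11, adjusted p = 6.1e-04), and over OP9-GFP 94.1, 80.2 and 102 at 24 h, against 60.1, 61.8 and 57.6 at 6 h (log2 fold change 0.61 ± 0.11, adjusted p = 0.0015). No library of 6 h reached the lowest of 24 h over the same feeder, and the calls held without any 1 library. Slc16a3 had 154, 146 and 209 over OP9-Jag1 at 24 h, against 102, 90.8 and 105 at 6 h (log2 fold change 0.75 ± 0.16, adjusted p = 0.0058). Over OP9-Dll4 it had 148, 110.4 and 182 at 24 h, against 103, 92.1 and 96.7 at 6 h (log2 fold change 0.56 ± 0.16, adjusted p = 0.026), and over OP9-GFP it did not pass (log2 fold change 0.45 ± 0.16, adjusted p = 0.065). The call over OP9-Dll4 was lost without 4 of the 6 libraries (adjusted p up to 0.12).

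Pfkl had 174, 144 and 181 over OP9-Jag1 at 24 h, against 97.9, 64.1 and 86.8 at 6 h (log2 fold change 1.01 ± 0.22, adjusted p = 0.0052). Over OP9-Dll4 it had 153, 118 and 179 at 24 h, against 98.8, 55.2 and 77.1 at 6 h (log2 fold change 0.97 ± 0.22, adjusted p = 0.0061), and over OP9-GFP 141, 106 and 142 at 24 h, against 93.3, 58.6 and 82.4 at 6 h (log2 fold change 0.74 ± 0.22, adjusted p = 0.026). The groups did not overlap over any feeder, and the libraries numbered 2 were the lowest at both times. Over OP9-GFP the call was lost without 3 of 6 libraries (adjusted p up to 0.13). Pfkp, by contrast, was lower at 24 h over OP9-GFP, 65.2, 54.6 and 60.8 against 72.9, 86.5 and 72.0 at 6 h (log2 fold change -0.35 ± 0.10, adjusted p = 0.023), a call lost without 3 of 6 libraries (up to 0.12). The per kb share of Pfkl in phosphofructokinase was 63.9% ± 2.59 at 24 h and 46.9% ± 4.76 at 6 h over OP9-Jag1, 61.7% ± 4.45 at 24 h and 44.9% ± 5.49 at 6 h over OP9-Dll4, and 59.1% ± 3.60 at 24 h and 45.8% ± 5.43 at 6 h over OP9-GFP. Hk2 had 73.9, 69.3 and 80.5 over OP9-Dll4 at 24 h, against 52.6, 64.6 and 48.8 at 6 h (log2 fold change 0.43 ± 0.11, adjusted p = 0.011), and 74.9, 70.2 and 67.9 over OP9-GFP at 24 h, against 49.5, 65.4 and 53.4 at 6 h (log2 fold change 0.34 ± 0.11, adjusted p = 0.032), where the call was lost without 5 of 6 libraries (up to 0.11).

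Lower in the chain, Ldha had 844, 753 and 871 over OP9-GFP at 24 h, against 663, 494 and 676 at 6 h (log2 fold change 0.44 ± 0.14, adjusted p = 0.041), and 953, 849.8 and 941 over OP9-Jag1 at 24 h, against 661, 525 and 698 at 6 h (0.55 ± 0.14). Over OP9-Dll4 it had 915, 751 and 942 at 24 h, against 678, 492 and 657 at 6 h (0.52 ± 0.14). Its groups lay apart over each feeder. Pgk1 had 763, 642 and 745 over OP9-Jag1 at 24 h, against 524, 407 and 525 at 6 h (log2 fold change 0.57 ± 0.15, adjusted p = 0.016), and 722, 582 and 744 over OP9-Dll4 at 24 h, against 519, 385 and 528 at 6 h (log2 fold change 0.52 ± 0.15, adjusted p = 0.023). Tpi1 rose over OP9-Jag1 (0.49 ± 0.15), and over OP9-Dll4 it had 780.2, 638 and 805 at 24 h, against 605, 427 and 596 at 6 h (0.46 ± 0.15). All of these groups lay apart. Over OP9-GFP these 2 did not pass (0.40 ± 0.15, adjusted p = 0.063 for Pgk1; 0.40 ± 0.15, 0.061 for Tpi1). Ldha, Pgk1 and Tpi1 lost calls without 3 to 4 of the 6 libraries, up to adjusted p = 0.21 for Ldha over OP9-GFP. Pdk1 had 24.7, 17.1 and 28.4 over OP9-Jag1 at 24 h, against 14.3, 9.87 and 12.7 at 6 h (log2 fold change 0.86 ± 0.27, adjusted p = 0.042; up to 0.17 without 1 library).

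Hif1a had 266, 260.2 and 269.7 over OP9-GFP at 24 h, against 212, 173 and 209.5 at 6 h (log2 fold change 0.42 ± 0.077, adjusted p = 0.0016), and rose over OP9-Jag1 (0.39 ± 0.077) and OP9-Dll4 (0.38 ± 0.077). No group overlapped its counterpart, and no single library decided a call. Egln1 had 67.1, 60.0 and 74.0 over OP9-Dll4 at 24 h, against 57.5, 47.1 and 45.9 at 6 h (log2 fold change 0.41 ± 0.09, adjusted p = 0.0056), and rose over OP9-Jag1 (log2 fold change 0.29 ± 0.09, adjusted p = 0.037) and OP9-GFP (log2 fold change 0.29 ± 0.09, adjusted p = 0.032), both lost without 4 or 5 of 6 libraries (up to 0.14 and 0.15). Egln3 did not pass over any feeder (-0.042 over OP9-Jag1, -0.065 over OP9-Dll4, -0.069 over OP9-GFP). Ankrd37 had 2.76, 3.27 and 2.36 over OP9-Dll4 at 24 h, against 1.22, 1.11 and 0.765 at 6 h (log2 fold change 0.90 ± 0.17, adjusted p = 0.0025), and 3.32, 3.13 and 3.07 over OP9-Jag1 at 24 h, against 1.90, 1.03 and 1.87 at 6 h (log2 fold change 0.70 ± 0.17, adjusted p = 0.013). The call over OP9-Jag1 was lost without 6 h library 2 (adjusted p = 0.083). At 6 h Ankrd37 had between 0.765 and 1.90 signal, low enough that the log2 scale understates its change.

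P4ha1 had 301, 253 and 319 over OP9-GFP at 24 h, against 199, 178 and 195 at 6 h (log2 fold change 0.60 ± 0.10, adjusted p = 0.001), 265, 266 and 308 over OP9-Jag1 at 24 h, against 195, 168 and 203 at 6 h (0.57 ± 0.10), and 265, 237 and 305 over OP9-Dll4 at 24 h, against 205, 181 and 194 at 6 h (0.47 ± 0.10). The groups lay apart over each feeder, without a single library deciding a call. Plod2 rose over OP9-Jag1 (log2 fold change 0.33 ± 0.10, adjusted p = 0.042) and Kdm3a, a histone demethylase that HIF raises, over OP9-Jag1 (log2 fold change 0.42 ± 0.13, adjusted p = 0.036) and OP9-Dll4 (log2 fold change 0.42 ± 0.13, adjusted p = 0.032), each a call lost without 5 of 6 libraries (up to 0.16 for Plod2 and 0.14 for Kdm3a over OP9-Jag1). Whether these effects differ between feeders was tested against OP9-GFP as the change of the ligand effect above, and no member passed. Bnip3 did not pass over any feeder: it had 8.93, 6.99 and 13.5 over OP9-Jag1 at 24 h and 5.70, 3.79 and 3.40 at 6 h (log2 fold change 1.01 ± 0.35, adjusted p = 0.063), with library 3 the highest at 24 h over each feeder.

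Of the members lower at 24 h, Ndrg1 had 42.0, 51.2 and 55.5 over OP9-Jag1, against 63.0, 68.0 and 76.6 at 6 h (log2 fold change -0.48 ± 0.12, adjusted p = 0.011). Mxi1, an antagonist of Myc, had 19.9, 20.0 and 22.0 over OP9-GFP at 24 h, against 31.6, 26.4 and 31.4 at 6 h (log2 fold change -0.51 ± 0.11, adjusted p = 0.0055). Neither gene's groups overlapped. The Ndrg1 call was lost without 2 of 6 libraries (up to 0.064), and the Mxi1 call held.

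Without the 6 h libraries numbered 2, 12 members were called over OP9-Jag1, 11 over OP9-Dll4 and 9 over OP9-GFP, against 12.6%, 14.1% and 15.5% of all genes. Egln1 then lost its calls over OP9-Jag1 and OP9-GFP (adjusted p = 0.08 over OP9-Jag1 and 0.12 over OP9-GFP). Over OP9-Jag1 Pdk1 (0.058) and Ankrd37 (0.069) lost the call, over OP9-Dll4 Slc16a3 did (0.074), and over OP9-GFP Pfkp did (0.098). The 15 enzymes made up 0.836, 0.748 and 0.816% of signal at 24 h and 0.702, 0.556 and 0.688% at 6 h over OP9-Jag1. Over OP9-Dll4 the shares were 0.798, 0.686 and 0.813% at 24 h and 0.712, 0.528 and 0.656% at 6 h, and over OP9-GFP 0.746, 0.679 and 0.756% at 24 h and 0.693, 0.527 and 0.668% at 6 h. The library numbered 2 was the lowest of each group at both times. The times did not overlap over OP9-Jag1, while over OP9-Dll4 and OP9-GFP the 24 h library 2 lay below the 6 h library 1.

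**Figure D5:**
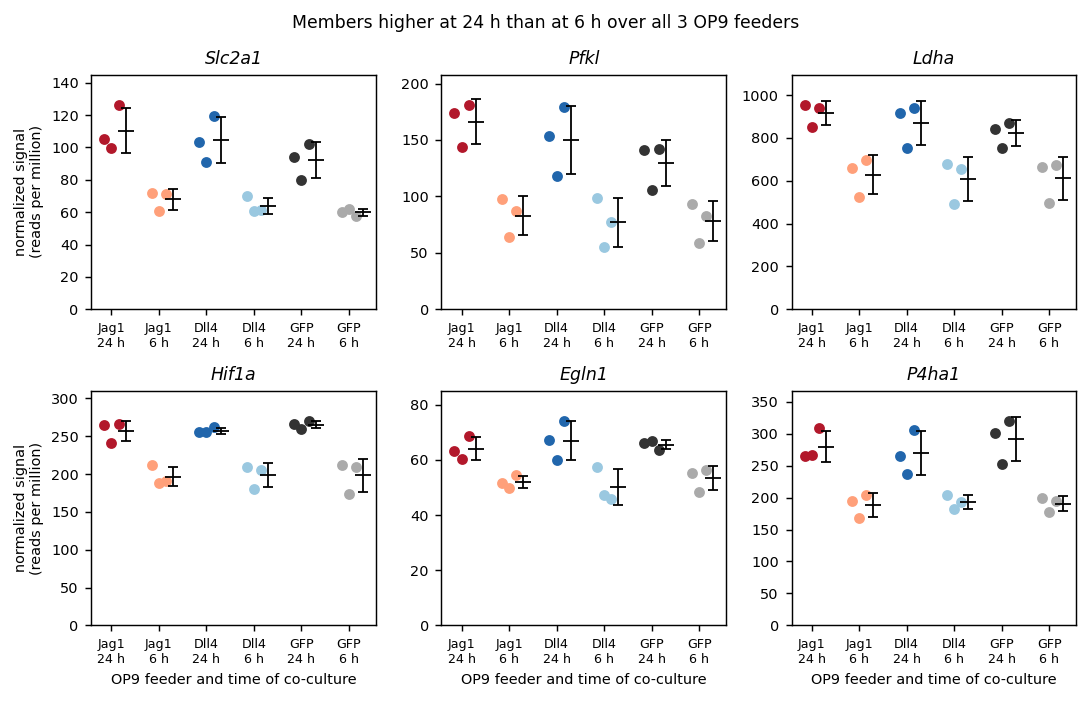
Signal (reads scaled to library size) of the 6 members called higher at 24 h than at 6 h over all 3 feeders, by feeder and time; points are libraries and black bars mean ± SD. Hif1a sat between 242 and 269.7 in the 9 libraries of 24 h and between 173 and 212 in the 9 libraries of 6 h.

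Single libraries moved the number of members called with time, and the share of all genes called in the same fits was not set beside it. Over OP9-Jag1 it was 7 without 6 h library 2 or 24 h library 1, and 8 without 6 h library 3 or 24 h library 3. Over OP9-Dll4 it was 7 without 24 h library 1. Over OP9-GFP it was 5 without 6 h library 2 or 24 h library 1, and 4 without 24 h library 3. The median log2 difference of the 34 members was 0.32 over OP9-Jag1, 0.37 over OP9-Dll4 and 0.27 over OP9-GFP, beside -0.0041, -0.0082 and -0.012 over all genes.

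Of the 27 other HIF targets listed, 8 rose and 2 fell with time over OP9-Jag1, 9 and 3 over OP9-Dll4, and 6 and 0 over OP9-GFP. Ddit4, which restrains growth signaling in hypoxia, was 25.9 ± 7.03 at 24 h against 7.16 ± 0.327 at 6 h over OP9-Jag1 (log2 fold change 1.69 ± 0.21, adjusted p = 8.3e-05), and rose over OP9-Dll4 (1.24 ± 0.21) and OP9-GFP (1.04 ± 0.21). Bhlhe40, a clock repressor, rose over all 3 feeders (0.71 ± 0.15 over OP9-Jag1, 0.74 ± 0.15 over OP9-Dll4 and 0.65 ± 0.15 over OP9-GFP). Ak4 did so as well (0.74 ± 0.17 over OP9-Jag1, 0.67 ± 0.17 over OP9-Dll4 and 0.56 ± 0.17 over OP9-GFP). Stc2, a secreted glycoprotein of low level here, fell over OP9-Jag1 (-0.79 ± 0.22) and OP9-Dll4 (-0.77 ± 0.22), and Siah2, a ubiquitin ligase acting on EGLN proteins, rose over all 3 (0.54 ± 0.09 over OP9-GFP). Of the 19 other genes of glucose metabolism, 2 rose and 3 fell over OP9-Jag1, 4 rose and 2 fell over OP9-Dll4, and 4 rose and 1 fell over OP9-GFP, with Pgm2 and Slc16a1 higher and Pgm1 lower over each. Of the 11 listed genes of the HIF machinery, 1 fell over OP9-Jag1, and 2 fell and 1 rose over OP9-Dll4 and over OP9-GFP. Arnt2 fell over OP9-Jag1 (-0.91 ± 0.15), OP9-Dll4 (-0.85 ± 0.15) and OP9-GFP (-0.75 ± 0.15), and Epas1, another HIF alpha subunit, fell over OP9-Dll4 (-0.91 ± 0.21) and OP9-GFP (-1.08 ± 0.21). Eloc, a subunit of the ligase that marks HIF for degradation, rose over OP9-Dll4 (0.24 ± 0.063) and OP9-GFP (0.24 ± 0.063). Stromal marker sums were 1414 to 1502 at 24 h and 1149.7 to 1331 at 6 h over OP9-Jag1, 1368 to 1511 at 24 h and 1157 to 1434 at 6 h over OP9-Dll4, and 1437 to 1713 at 24 h and 1229.8 to 1703 at 6 h over OP9-GFP. The stromal list did not move as one. Of its 9 genes listed, 1 was called higher and 1 lower over OP9-Jag1, with a median log2 difference of -0.088. Over OP9-Dll4 1 was called higher (median -0.15), and over OP9-GFP 1 was called higher (median -0.12). Endothelial sums were 70.9 to 82.7 at 24 h and 72.8 to 88.2 at 6 h over OP9-Jag1, 74.2 to 83.5 at 24 h and 75.7 to 86.5 at 6 h over OP9-Dll4, and 98.8 to 101 at 24 h and 81.3 to 92.2 at 6 h over OP9-GFP, where Cd34 was called higher while the list's median was -0.25. The cardiomyocyte list summed to 21.4 to 32.9 at 24 h and 26.4 to 46.9 at 6 h over OP9-Jag1, 43.8 to 79.1 at 24 h and 24.1 to 43.5 at 6 h over OP9-Dll4, with 4 of 6 genes called higher and 1 lower (median 1.38), and 29.5 to 33.2 at 24 h and 23.2 to 42.1 at 6 h over OP9-GFP. A list of 10 blood genes, 4 of them listed, summed to 5.37 to 7.21 at 24 h and 9.65 to 16.7 at 6 h over OP9-Jag1, 6.40 to 12.4 at 24 h and 11.7 to 14.7 at 6 h over OP9-Dll4, and 6.38 to 6.90 at 24 h and 11.3 to 15.3 at 6 h over OP9-GFP. The part of other cells in the members' changes was not tested.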

How the data were processed

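The deposited tables hold signal values per gene and library, which the authors scaled to the library size; per the submitters' processing notes, FastQC, cutadapt, RSEM and limma were used on GRCm38, and no version or setting was named. The deposited signal equalled a whole number of reads plus 0.5 over a scaled library size, in 100% of values within 0.01 reads, so reads were recovered from it; with 3 reads as the floor, the floor was 0.179 to 0.221 in experiment 1, 0.119 to 0.158 in experiment 2 and 0.0859 to 0.266 in experiment 3, for counting error only. Values were fitted as log2(signal + 1) in R 4.3.3 with limma 3.58.1 (trend), each table apart with all its groups, and p-values were adjusted over all its genes by Benjamini-Hochberg. Groups came from the labels. The members and all gene lists were chosen with earlier results of these data known. Values in every library were printed for up to 8 called members per comparison with the greatest absolute change, and for the smallest unadjusted p where fewer than 3 were called; paralogues and up to 4 called genes of a side list were added (1 that the rule names is not reported here), and values of other members were given where text follows a gene across comparisons. Deviations from the group mean were correlated between libraries of the same number: every r was over 0.1 (0.111 to 0.683) in all comparisons except 24 h against 6 h (0.0309 to 0.276) and rDLL4 + RO against rDLL4 (0.0778 to 0.401). Outside those exceptions the numbers were read as pairs, but only for the replicate block. The fit described above used group means without pairing. The block was run on the excepted comparisons too. Alternatives were the replicate block, pseudocounts of 0.25 and 4, a mean signal of at least 5, quantile normalization, library weights, the named groups alone, edgeR 4.0.16 and DESeq2 1.42.0 on recovered reads, each library left out and, chosen after the data were seen, the 6 h libraries numbered 2 left out. Promoters came from RefSeq and gene lengths from GENCODE M21.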

Additional observations from a re-analysis of the deposited data

Results flagged for a closer look

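Groups of 4 libraries occur only in the co-cultures with DMSO or RO4929097, where 68 sets of 4 values were examined, and 3 had a library standing apart from the others by Dixon's test at the 95% level, with chance giving about 5% of sets. Slc2a1 was 56.1 in library 4 of MEEC treated with RO4929097, against 48.9 to 49.7 in the other treated libraries. Slc16a3 was 50.1 in library 1 of MEEC treated with RO4929097, against 63.3 to 65.9 in the others. Pfkl was 74.1 in library 2 of MEEC treated with DMSO, against 56.6 to 58.9 in the others.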

How the results depend on the processing

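With the replicate number as a block, the number of members called was 1 for OP9-Jag1 and 1 for OP9-Dll4 against OP9-GFP at 6 h, 12 and 3 at 24 h, and 1 for OP9-Dll4 against OP9-Jag1 at 24 h. It was 23, 22 and 24 for 24 h against 6 h over OP9-Jag1, OP9-Dll4 and OP9-GFP, against 25.3%, 30.2% and 32.7% of all genes, 2 for RO4929097 in co-culture, 10 for rJAG1, 7 for rDLL4, 10 for rJAG1 + RO against DMSO and 13 for rDLL4 + RO against DMSO. For rDLL4 + RO against rDLL4 it was 18 (17.3% of all genes). It ended no call. For 24 h against 6 h and for rDLL4 + RO against rDLL4 the libraries share a number, and their deviations did not all correlate over 0.1. Library weights, with the share of all genes called in brackets, gave 1 member for OP9-Dll4 against OP9-Jag1 at 6 h (1.4%), 20 for 24 h over OP9-Dll4 (29.0%), 19 over OP9-GFP (32.6%), 12 for rJAG1 (21.2%), 10 for rDLL4 (13.8%), 20 for rDLL4 + RO against rDLL4 (19.3%), 18 for rJAG1 + RO (13.4%) and 17 for rDLL4 + RO against DMSO (13.5%). The estimation of these weights gave a convergence warning in 1 experiment, so the counts from library weights are uncertain to that extent. Quantile normalization gave 7 for 24 h over OP9-Dll4 (11.8%). Fitting only the 2 groups named, with fewer libraries to estimate the spread, gave 1 for rDLL4 (1.17%), 19 for rDLL4 + RO against rDLL4 (15.3%), 0 for rJAG1 + RO (0.119%) and 1 for rDLL4 + RO against DMSO (0.164%). DESeq2 gave 10 for rJAG1 + RO (2.39%) and 9 for rDLL4 + RO against DMSO (3.24%). The causes were not tested.

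Leaving out 1 library at a time gave 0 to 1 members for OP9-Jag1 at 24 h, 7 to 13, 7 to 15 and 4 to 10 for 24 h against 6 h over OP9-Jag1, OP9-Dll4 and OP9-GFP, 1 to 1 for RO4929097 in co-culture, 6 to 7 for rJAG1, 2 to 5 for rDLL4, 10 to 17 for rJAG1 + RO against rJAG1, 5 to 10 for rDLL4 + RO against rDLL4, 2 to 8 for rJAG1 + RO and 2 to 12 for rDLL4 + RO against DMSO, and 0 in the rest. Of the single members' values compared under these fits, 838 stayed on their side of the threshold, 149 lost a call and 31 gained one. These values do not cover every member in every comparison, so they give no rate at which calls were lost. The share of all genes called in these fits was not set beside the counts. Counts under pseudocounts of 0.25 and 4, the mean signal of at least 5, edgeR and the 6 h libraries numbered 2 left out were within 1.5 times those reported. The direction of a member that was not called could reverse when a library was left out, as for Hif1a on rJAG1. Ankrd37, with as few as 11 reads in a library, carried the largest counting error of the members; what limited the number of calls was not tested.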
